A study of Mus musculus with 16 samples.

Results

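The genes described here are the sensors of cellular oxygen, the hypoxia-inducible factors (HIF) that they control, and a set of HIF target genes outside the glycolytic pathway. They were chosen by name, as 4 HIF subunits, 5 genes of oxygen sensing and HIF degradation and 24 targets, which makes 33 of the 55401 genes in the deposited tables. Earlier results of these data were known when they were chosen. RNA came from cultured CD8+ T cells of the OT-I mouse strain, in which a T cell receptor transgene recognises a peptide of ovalbumin. All 4 groups were spleen T cells activated with that peptide and then cultured with a cytokine, and each group held 4 libraries. TPdh-/- TM (libraries 13 to 16) and WT TM (libraries 9 to 12) were driven towards memory cells with IL-15. TPdh-/- TE (libraries 5 to 8) and WT TE (libraries 1 to 4) were driven towards effector cells with IL-2. TPdh-/- mice carry a floxed Pdha1, the gene for a subunit of the pyruvate dehydrogenase complex, together with a Cre recombinase under the Cd4 promoter, so that deletion is limited to cells that express Cd4 at some stage, which CD8+ T cells do during thymic development. Per the methods of the study mice of both sexes were used. The labels name neither the sex, the age nor the animal behind a library, and they do not give the oxygen level of the cultures.

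In cells with enough oxygen, prolyl hydroxylases (Egln1, Egln2 and Egln3) mark the HIF alpha subunits, the VHL protein recognises the mark, and the subunit is degraded. Without oxygen, or when the hydroxylases lack their cosubstrate 2-oxoglutarate or are blocked by succinate or fumarate, the alpha subunit pairs with Arnt and switches on genes for glycolysis, mitophagy, blood vessel growth and matrix assembly. In T cells, receptor signalling and IL-2 also raise HIF-1 through mTOR, and HIF-1 is known for its part in the glycolytic effector state. Pyruvate dehydrogenase feeds glucose carbon into the cycle that makes these metabolites. RNA levels report on the targets and not on the stability of the HIF proteins, which was not measured.

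HIF binds the core letters ACGTG or GCGTG. Windows of the 250 bases before the start site from RefSeq (GRCm38.p6) were matched for 28 of the 33 genes, and the motif was searched in them on both strands. At least 1 match was present in 21 of 28 windows (75%), in 5840 of 10411 windows of the genes tested (56.1%) and in 10433 of 27025 windows of all genes (38.6%). ACGTG alone was present in 14 of the 28 windows (50%) and in 21.8% of those of the genes tested. A match is a description of the letters and not a bound site. The windows below belong to the genes that differed between genotypes with the smallest adjusted p among those with a match and with no more than 30 bases of annotated exon in the window. They are shown as examples of genes called between genotypes, with matches on either strand in capitals. Matches were as frequent in the genes called between genotypes in TM or TE (12 of 16 windows, 75%) as in those called in neither (9 of 12, 75%). ACGTG alone was present in 10 of 16 (62.5%) and 4 of 12 (33.3%), a difference that was not tested. The calls of P4ha1 and Ak4 depend on single libraries. The RefSeq start behind the window lies 3805 bases from the outermost GENCODE start for Pygl and 5857 bases for Ankrd37, so that these windows fall inside the gene spans given with the values, and 0 to 14 bases for the other 4 genes. The first bases after the start were found in a GENCODE transcript for all of them but Egln3. In Bnip3 the 2 matches of ACGTG overlap in the palindrome CACGTG, an E-box that other basic helix-loop-helix factors can bind too, and the windows of 2 genes, Bnip3 and Hif1a, held that palindrome.
Egln3, chr12:54203875-54204124, minus strand: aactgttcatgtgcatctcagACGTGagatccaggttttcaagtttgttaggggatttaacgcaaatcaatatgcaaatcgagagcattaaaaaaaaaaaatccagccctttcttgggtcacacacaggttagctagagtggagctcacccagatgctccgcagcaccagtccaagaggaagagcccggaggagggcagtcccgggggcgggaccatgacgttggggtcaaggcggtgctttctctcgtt
Pygl, chr12:70227684-70227933, minus strand: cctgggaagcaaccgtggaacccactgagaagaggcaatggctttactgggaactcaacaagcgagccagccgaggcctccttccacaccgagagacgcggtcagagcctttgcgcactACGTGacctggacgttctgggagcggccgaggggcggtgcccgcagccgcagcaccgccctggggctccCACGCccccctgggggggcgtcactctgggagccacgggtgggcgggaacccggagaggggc
Ankrd37, chr8:45999851-46000100, minus strand: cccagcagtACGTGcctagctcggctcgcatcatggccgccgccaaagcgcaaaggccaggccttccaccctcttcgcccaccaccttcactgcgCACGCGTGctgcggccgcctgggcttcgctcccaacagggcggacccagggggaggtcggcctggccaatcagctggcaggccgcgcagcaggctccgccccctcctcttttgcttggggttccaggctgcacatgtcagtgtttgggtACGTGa
Bnip3, chr7:138909507-138909756, minus strand: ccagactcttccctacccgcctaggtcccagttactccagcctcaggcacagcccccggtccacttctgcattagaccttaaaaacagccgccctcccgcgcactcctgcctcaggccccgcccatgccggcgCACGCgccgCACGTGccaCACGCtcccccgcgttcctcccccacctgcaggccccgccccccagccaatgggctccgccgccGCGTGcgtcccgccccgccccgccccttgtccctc
P4ha1, chr10:59323046-59323295, plus strand: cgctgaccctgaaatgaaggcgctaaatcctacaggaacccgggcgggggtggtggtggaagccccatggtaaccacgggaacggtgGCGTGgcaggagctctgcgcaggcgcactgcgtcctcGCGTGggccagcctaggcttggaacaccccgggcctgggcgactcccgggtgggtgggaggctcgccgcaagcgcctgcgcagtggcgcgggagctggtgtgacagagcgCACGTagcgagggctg
Ak4, chr4:101419039-101419288, plus strand: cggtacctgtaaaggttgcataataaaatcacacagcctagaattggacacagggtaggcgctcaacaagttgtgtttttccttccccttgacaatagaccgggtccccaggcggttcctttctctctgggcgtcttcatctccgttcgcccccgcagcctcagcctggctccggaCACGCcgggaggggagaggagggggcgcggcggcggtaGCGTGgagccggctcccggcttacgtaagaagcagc

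Each library held 53007257 to 73507566 counts, and 19379 to 20739 genes had a count. Libraries of 1 group correlated at 0.988 or more in log2 CPM, and libraries of different groups at 0.986 or less. WT TM library 12 stood apart from its group, and TPdh-/- TE library 5 from libraries 7 and 8 but not from library 6. A chi-square per degree of freedom between libraries of a group ran from 53.7 to 70.3 for pairs with library 12 and from 23.4 to 61.3 for pairs with library 5, within a range of 8.11 to 70.3 over all pairs. The pair of libraries 5 and 6 was the one at 23.4. Pairs with TPdh-/- TM library 13 ran from 19.2 to 43. Calls that change without libraries 5 or 12 are named beside the results. The study describes its RNA replicates as mice, in a number per condition that differs from the libraries analysed here. The labels tie no library to a mouse, so every p measures the spread between these libraries. Pdha1, the targeted gene, read 153 ± 8.51 CPM in TPdh-/- TM, 178 ± 11.6 CPM in WT TM, 153 ± 4.21 CPM in TPdh-/- TE and 161 ± 0.787 CPM in WT TE (mean ± SD, n = 4 each). The tables hold counts per gene and not per exon, so that this level does not check the deletion of an exon. The CD8+ T cell markers Cd3e, Cd3d, Cd8a, Cd8b1 and Trac were present in every library.

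Most of these genes were lower in TM than in TE, in both genotypes. The question was how the 2 culture conditions differ in this pathway. Levels are given as CPM, the count of a gene relative to the total of its library, scaled with TMM factors, and a gene was called when its adjusted p from edgeR was below 0.05 over the 15277 genes tested. Of the 33 genes, 32 passed the filter on low counts and Adm did not. In TPdh-/-, 28 of 32 were lower in TM and 2 were higher, beside 34.6% lower and 33% higher over all genes tested. In WT, 28 were lower and 1 was higher, beside 34.2% lower and 34.2% higher over all genes. The median log2 difference of the 32 genes was -1.60 in TPdh-/- and -1.82 in WT, against -0.0031 and 0.0077 over all genes tested. Both directions of change were common in this comparison, and 27 of the 32 genes were lower in both genotypes, beside 27.7% of all genes tested. In 26 of these 27 all TM libraries lay below all TE libraries of the same genotype, beside 23.2% of all genes, and 23 were more than 2-fold lower in both genotypes, beside 7.83%. In 8 the levels were more than 8-fold lower in both, beside 1.35%. The genes were chosen with earlier results of these data known, so these shares describe them and are not an independent test. In bulk RNA, fewer cells of a type and less RNA per cell cannot be told apart.

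**Figure D1:**
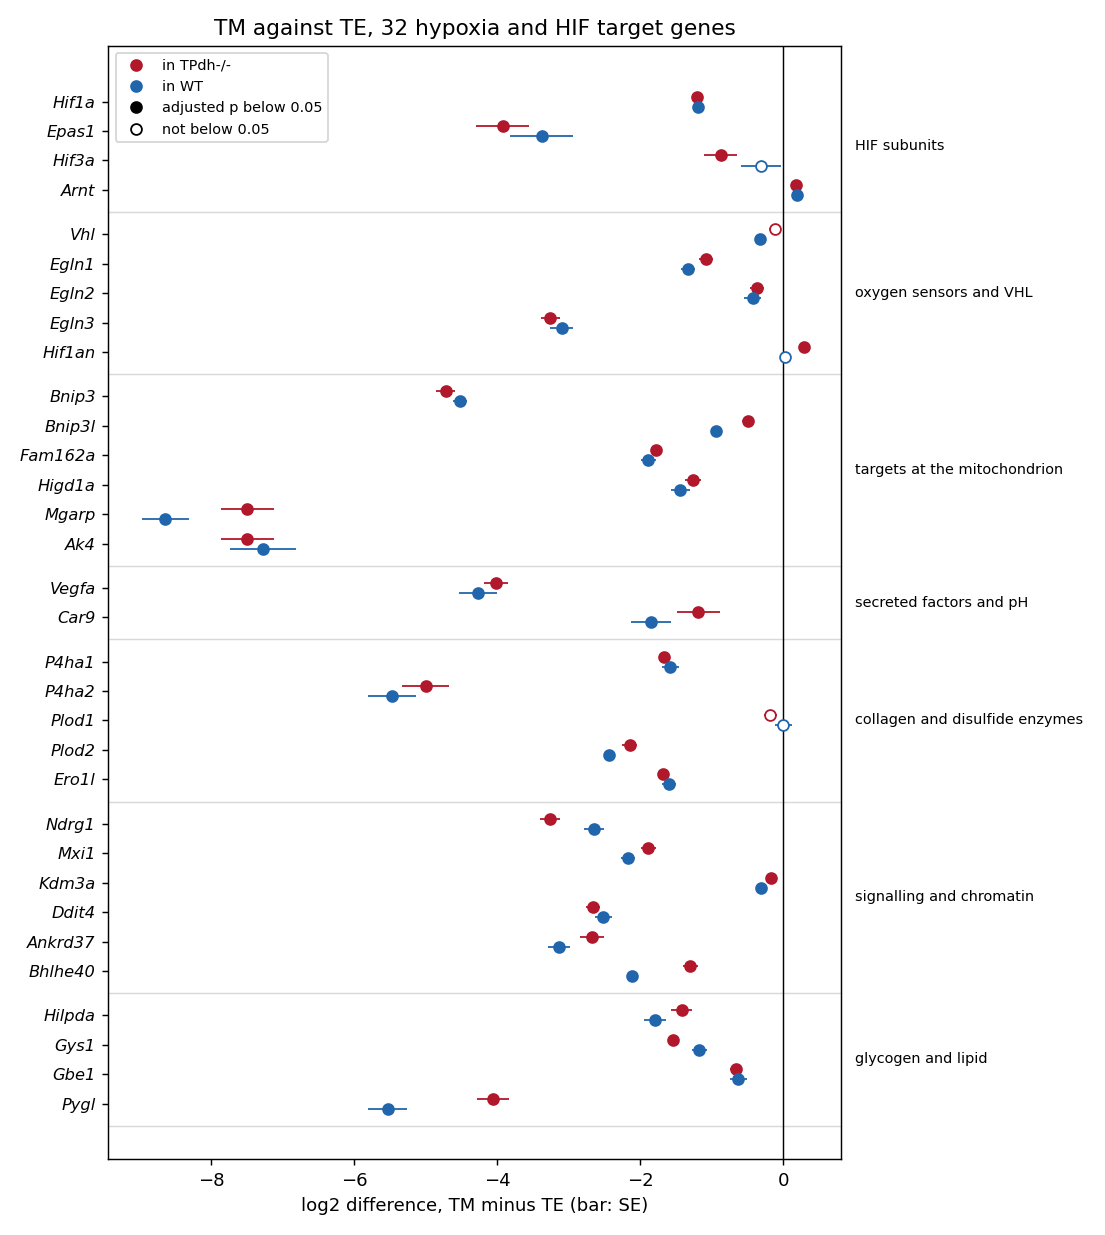
The log2 difference of TM from TE (x axis, with SE) for each of the 32 genes tested (y axis, grouped by role), with TPdh-/- as the upper and WT as the lower point of each row. Filled points passed an adjusted p of 0.05, and nearly all points lie left of 0, with Mgarp and Ak4 farthest out.

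The alpha subunit Hif1a (GRCm38, ENSMUSG00000021109, chromosome 12, 73901375 to 73947530) was the most abundant of the HIF genes. Hif1a read 169, 178, 188 and 205 CPM in the 4 TPdh-/- TM libraries and 173, 164, 168 and 168 CPM in the 4 WT TM libraries. The TE libraries held 447, 415, 419 and 431 CPM in TPdh-/- and 387, 363, 370.1 and 414 CPM in WT. All TM libraries lay below all TE libraries, in both genotypes. TM differed from TE by a log2 value of -1.21 (SE 0.064) in TPdh-/- and -1.19 (SE 0.045) in WT (edgeR adjusted p = 1.47e-11 and 1.65e-11). Epas1 read 0.275, 0.0889, 0.196 and 0.195 CPM in the 4 TPdh-/- TM libraries and 0.296, 0.167, 0.12 and 0.534 CPM in the 4 WT TM libraries. The values in TE were 1.97, 2.37, 4.08 and 3.21 CPM in TPdh-/- and 2.97, 2.18, 3.47 and 3.17 CPM in WT. Epas1, the second alpha subunit, was near the limit of detection in TM and lower there in both genotypes (log2 -3.93 in TPdh-/- and -3.38 in WT, edgeR adjusted p = 5.58e-08 and 1.6e-07). Hif3a read 0.585, 0.729, 0.619 and 1.03 CPM in the 4 TPdh-/- TM libraries and 0.577, 0.833, 0.856 and 1.28 CPM in the 4 WT TM libraries. In TE these were 1.11, 1.45, 1.13 and 1.74 CPM in TPdh-/- and 0.828, 1.32, 1.28 and 0.97 CPM in WT. Hif3a, an alpha subunit that can antagonise the others, stayed below 2 CPM in every library and was called lower in TPdh-/- only (log2 -0.88 in TPdh-/- and -0.31 in WT, edgeR adjusted p = 0.00451 and 0.277). The interaction of genotype and culture did not pass (edgeR adjusted p = 0.303). Arnt read 70, 70.1, 65.5 and 70.1 CPM in the 4 TPdh-/- TM libraries and 70.3, 70.2, 65 and 72.9 CPM in the 4 WT TM libraries. The TE levels were 57.4, 61.2, 62.3 and 61.4 CPM in TPdh-/- and 58.6, 60.3, 61.7 and 63.2 CPM in WT. Arnt, the shared partner, went the other way and was higher in TM by 0.19 in TPdh-/- and 0.19 in WT on the log2 scale (edgeR adjusted p = 0.00216 and 0.00162).

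Among the sensors Egln3 differed most, and Hif1an and Vhl least. Egln3 (PHD3, ENSMUSG00000035105, chromosome 12, 54178981 to 54203860) is a prolyl hydroxylase that is itself a strong HIF target. Egln3 read 4.61, 5.03, 4.6 and 6.26 CPM in the 4 TPdh-/- TM libraries and 9.37, 10.4, 11.3 and 13.7 CPM in the 4 WT TM libraries. TE libraries read 40.5, 52.7, 52.5 and 50 CPM in TPdh-/- and 102, 89.6, 113 and 78.5 CPM in WT. Each of the 4 groups was separate from the next in the order TPdh-/- TM, WT TM, TPdh-/- TE, WT TE. On the log2 scale TM minus TE was -3.26 (SE 0.14) in TPdh-/- and -3.1 (SE 0.16) in WT (edgeR adjusted p = 9.41e-12 and 9.69e-12). Egln1 (PHD2, ENSMUSG00000031987, chromosome 8, 124908587 to 124949324) is the hydroxylase held to set HIF levels in most cells. Egln1 read 53.8, 56.3, 61.8 and 58.2 CPM in the 4 TPdh-/- TM libraries and 57.9, 55.3, 59.7 and 68.8 CPM in the 4 WT TM libraries. In TE culture it read 123, 126, 135 and 103 CPM in TPdh-/- and 151, 148, 174 and 137 CPM in WT. TM libraries were near a level of 57.5 ± 3.36 CPM in TPdh-/- and 60.4 ± 5.85 CPM in WT, below every TE library. The log2 difference of TM from TE was -1.08 (SE 0.092) in TPdh-/- and -1.34 (SE 0.1) in WT (edgeR adjusted p = 6.77e-09 and 4.36e-10). Egln2 read 9.53, 7.91, 9.15 and 8.96 CPM in the 4 TPdh-/- TM libraries and 9.37, 8.96, 10.6 and 12.2 CPM in the 4 WT TM libraries. The TE libraries held 10.1, 12.3, 12.8 and 10.7 CPM in TPdh-/- and 12.9, 14.2, 15.4 and 12.9 CPM in WT. Egln2 (PHD1) was lower by a smaller step, with a log2 difference of -0.37 in TPdh-/- and -0.43 in WT (edgeR adjusted p = 0.00439 and 0.00134). Vhl read 23.7, 25.7, 27.5 and 25.3 CPM in the 4 TPdh-/- TM libraries and 25.1, 26, 25 and 23.4 CPM in the 4 WT TM libraries. The values in TE were 26.2, 26.9, 31.4 and 26.5 CPM in TPdh-/- and 32.2, 31.1, 31.9 and 29.1 CPM in WT. Vhl, the subunit of the ubiquitin ligase that recognises hydroxylated HIF, was lower in TM in WT (log2 -0.32, edgeR adjusted p = 0.000269), while the groups overlapped in TPdh-/- (log2 -0.12, edgeR adjusted p = 0.117). Hif1an read 99.7, 102, 102 and 110.1 CPM in the 4 TPdh-/- TM libraries and 95.8, 97.6, 89 and 95.9 CPM in the 4 WT TM libraries. In TE these were 79.7, 84.5, 88 and 85.2 CPM in TPdh-/- and 93.2, 93.5, 92.7 and 91.8 CPM in WT. Hif1an, which blocks HIF from its coactivators, was higher in TM in TPdh-/- (log2 0.29, edgeR adjusted p = 2.1e-05) and did not pass in WT (log2 0.027, edgeR adjusted p = 0.617).

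The 6 targets that act at the mitochondrion held the widest differences, and all 6 were lower in TM in both genotypes. Bnip3 (ENSMUSG00000078566, chromosome 7, 138890836 to 138909519) is a receptor for mitophagy. Bnip3 read 6.12, 7.77, 7.35 and 9.12 CPM in the 4 TPdh-/- TM libraries and 10.4, 11.3, 11.1 and 11.9 CPM in the 4 WT TM libraries. The TE levels were 205, 212, 207 and 176 CPM in TPdh-/- and 260.2, 254, 291 and 219 CPM in WT. The TM libraries lay far below the TE libraries, with a gap between 9.12 and 176 CPM in TPdh-/- and between 11.9 and 219 CPM in WT. TM differed from TE by a log2 value of -4.72 (SE 0.13) in TPdh-/- and -4.52 (SE 0.093) in WT (edgeR adjusted p = 5.4e-15 and 8.01e-15). Of the exon positions of Bnip3 22.3% also belong to another gene, and the kit kept no strand, so reads there could not be assigned with certainty. Ak4, an adenylate kinase of the mitochondrial matrix (ENSMUSG00000028527, chromosome 4, 101419277 to 101466995), was close to 0 in TM. Ak4 read 0.275, 0.373, 0.166 and 0.106 CPM in the 4 TPdh-/- TM libraries and 0.14, 0.241, 0.376 and 0.734 CPM in the 4 WT TM libraries. TE libraries read 48.6, 43.6, 42.9 and 31 CPM in TPdh-/- and 59.4, 57.1, 61.6 and 53.8 CPM in WT. Over the 4 libraries of a group this was 54 counts in TPdh-/- TM and 88 in WT TM, against 10846 in TPdh-/- TE and 14282 in WT TE. On the log2 scale TM minus TE was -7.5 (SE 0.37) in TPdh-/- and -7.28 (SE 0.46) in WT (edgeR adjusted p = 4.51e-12 and 2.93e-12). Mgarp, a mitochondrial protein linked to organelle transport, had 13 counts in TPdh-/- TM and 9 in WT TM over the 4 libraries of each group. Mgarp read 0.086, 0.0178, 0.0604 and 0.0532 CPM in the 4 TPdh-/- TM libraries and 0.0156, 0.0555, 0.0171 and 0.0667 CPM in the 4 WT TM libraries. In TE culture it read 8.54, 10.9, 15.2 and 6.36 CPM in TPdh-/- and 17, 14.6, 21.2 and 11.5 CPM in WT. The fitted log2 difference of -7.5 in TPdh-/- and -8.65 in WT rests on these few TM counts (edgeR adjusted p = 9.66e-11 and 2.53e-11). Bnip3l, the second of the mitophagy receptors (ENSMUSG00000022051, chromosome 14, 66985239 to 67008877), was abundant in both cultures. Bnip3l read 145, 146, 147 and 156 CPM in the 4 TPdh-/- TM libraries and 147, 150.2, 152 and 144 CPM in the 4 WT TM libraries. The TE libraries held 189, 204, 243 and 201 CPM in TPdh-/- and 289.9, 268, 309.6 and 265 CPM in WT. The TM groups overlapped with each other and lay below both TE groups. The log2 difference of TM from TE was -0.49 (SE 0.082) in TPdh-/- and -0.93 (SE 0.055) in WT (edgeR adjusted p = 4.79e-06 and 1.74e-09). Fam162a read 15.2, 17.7, 17.2 and 17.8 CPM in the 4 TPdh-/- TM libraries and 20.2, 19.2, 19.6 and 15.1 CPM in the 4 WT TM libraries. The values in TE were 62.1, 59.9, 57.2 and 54.3 CPM in TPdh-/- and 72.1, 66.1, 72 and 63.6 CPM in WT. Fam162a, a mitochondrial protein tied to cell death in hypoxia, did not overlap between TM and TE in either genotype and differed by -1.78 in TPdh-/- and -1.89 in WT (edgeR adjusted p = 8.56e-12 and 4.11e-12). Higd1a read 42.8, 52.5, 57.5 and 58 CPM in the 4 TPdh-/- TM libraries and 56.4, 51.3, 59.2 and 40.5 CPM in the 4 WT TM libraries. In TE these were 127, 133, 129.7 and 114 CPM in TPdh-/- and 147, 137, 149 and 129 CPM in WT. Higd1a, a small protein of the inner mitochondrial membrane, did not overlap between TM and TE in either genotype and differed by -1.26 in TPdh-/- and -1.44 in WT (edgeR adjusted p = 1.91e-08 and 3.18e-09). Fam162a shares 19.8% and Higd1a 22.5% of its exon positions with another gene.

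Of the secreted factors and the pH regulator, Vegfa was clearly expressed in TE, Car9 was low throughout and Adm was not detectable above the filter. Vegfa, the growth factor of blood vessels (ENSMUSG00000023951, chromosome 17, 46016993 to 46032369), is a classical HIF target. Vegfa read 1.55, 1.24, 1.22 and 1.05 CPM in the 4 TPdh-/- TM libraries and 0.905, 0.796, 0.958 and 1.57 CPM in the 4 WT TM libraries. The TE levels were 17.8, 22.4, 24.3 and 17.3 CPM in TPdh-/- and 20.8, 19.4, 26.5 and 15.3 CPM in WT. TM and TE were separate in both genotypes, and the genotypes overlapped within each culture. TM differed from TE by a log2 value of -4.01 (SE 0.16) in TPdh-/- and -4.27 (SE 0.26) in WT (edgeR adjusted p = 5.57e-11 and 2.53e-11). Car9 read 0.413, 0.409, 0.453 and 0.603 CPM in the 4 TPdh-/- TM libraries and 0.156, 0.167, 0.205 and 0.35 CPM in the 4 WT TM libraries. TE libraries read 0.566, 1.33, 1.13 and 1.24 CPM in TPdh-/- and 1.06, 0.731, 0.751 and 0.641 CPM in WT. Car9, a carbonic anhydrase at the cell surface, was lower in TM, with a difference of -1.19 in TPdh-/- and -1.85 in WT on the log2 scale (edgeR adjusted p = 0.000941 and 3.38e-05), and the libraries of the 2 cultures overlapped in TPdh-/-. Adm, the vasodilator adrenomedullin, had 2 counts in TPdh-/- TM, 1 in WT TM, 7 in TPdh-/- TE and 8 in WT TE over the 4 libraries of a group, and no difference was detectable at this depth.

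The enzymes of collagen and disulfide formation were lower in TM with the exception of Plod1. P4ha2 read 0.378, 0.711, 0.664 and 1.14 CPM in the 4 TPdh-/- TM libraries and 0.25, 0.37, 0.428 and 0.684 CPM in the 4 WT TM libraries. In TE culture it read 21.3, 24.8, 27 and 19 CPM in TPdh-/- and 20.6, 16.9, 25.4 and 14 CPM in WT. P4ha2, a collagen prolyl hydroxylase, was close to 0 in TM, a log2 difference of -5.0 in TPdh-/- and -5.47 in WT (edgeR adjusted p = 1.86e-10 and 1.23e-10). P4ha1 read 34.5, 32, 31.1 and 32.3 CPM in the 4 TPdh-/- TM libraries and 38, 34.2, 37.4 and 48.2 CPM in the 4 WT TM libraries. The TE libraries held 103, 103, 105 and 99.5 CPM in TPdh-/- and 123, 115, 129 and 105 CPM in WT. P4ha1, its paralog, did not overlap between TM and TE in either genotype and differed by -1.66 in TPdh-/- and -1.58 in WT (edgeR adjusted p = 2.84e-11 and 3.72e-11). Plod2 read 21, 20.8, 22.2 and 21.4 CPM in the 4 TPdh-/- TM libraries and 18.1, 19.4, 20.7 and 20.4 CPM in the 4 WT TM libraries. The values in TE were 106, 98.1, 96.2 and 76.4 CPM in TPdh-/- and 111, 108, 109 and 95.4 CPM in WT. Plod2, a lysyl hydroxylase of collagen, did not overlap between TM and TE in either genotype and differed by -2.14 in TPdh-/- and -2.43 in WT (edgeR adjusted p = 1.36e-12 and 4.13e-13). Ero1l, the oxidase that drives disulfide formation in the endoplasmic reticulum, had the highest level of these 5 genes per length. Ero1l read 95.6, 97.8, 99.4 and 105 CPM in the 4 TPdh-/- TM libraries and 98.2, 99.1, 99.2 and 95.1 CPM in the 4 WT TM libraries. In TE these were 321, 319, 341 and 289 CPM in TPdh-/- and 316, 284, 339.6 and 249 CPM in WT. Its log2 difference was -1.67 in TPdh-/- and -1.6 in WT (edgeR adjusted p = 6.49e-12 and 9.69e-12). Plod1, another lysyl hydroxylase, overlapped between cultures in both genotypes (log2 -0.18 and 0.0029, edgeR adjusted p = 0.151 and 0.983). Without libraries 5 and 12 Plod1 was called lower in TM in TPdh-/- (log2 -0.24, adjusted p = 0.0335).

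The signalling and chromatin targets were all lower in TM. Ndrg1 (ENSMUSG00000005125, chromosome 15, 66929318 to 66969640) is a stress-induced protein and in T cells has been tied to anergy. Ndrg1 read 15.3, 18.2, 14.1 and 15.5 CPM in the 4 TPdh-/- TM libraries and 22.9, 23, 22.9 and 28.9 CPM in the 4 WT TM libraries. The TE levels were 164, 157, 165 and 119 CPM in TPdh-/- and 161, 147, 177 and 123 CPM in WT. The cultures were separate, and within TE the genotypes overlapped. On the log2 scale TM minus TE was -3.26 (SE 0.14) in TPdh-/- and -2.64 (SE 0.14) in WT (edgeR adjusted p = 4.37e-12 and 2.53e-11). Bhlhe40 (ENSMUSG00000030103, chromosome 6, 108660629 to 108666925) is a basic helix-loop-helix repressor that supports cytokine production in T cells. Bhlhe40 read 55.8, 56.4, 63.4 and 72.1 CPM in the 4 TPdh-/- TM libraries and 43.5, 40.9, 38.3 and 44.3 CPM in the 4 WT TM libraries. TE libraries read 164, 162, 148 and 136 CPM in TPdh-/- and 183, 175, 191 and 178 CPM in WT. The order was TE over TM in both genotypes, with TPdh-/- TM above WT TM and TPdh-/- TE below WT TE in every library. The log2 difference of TM from TE was -1.3 (SE 0.11) in TPdh-/- and -2.12 (SE 0.055) in WT (edgeR adjusted p = 1.86e-10 and 9.25e-13). Ankrd37 (ENSMUSG00000050914, chromosome 8, 45996902 to 46005707) is an ankyrin repeat protein used as a marker of hypoxia. Ankrd37 read 1.43, 1.88, 1.9 and 1.76 CPM in the 4 TPdh-/- TM libraries and 1.9, 1.94, 2.19 and 2.5 CPM in the 4 WT TM libraries. In TE culture it read 10, 11.6, 14.1 and 8.82 CPM in TPdh-/- and 19.7, 18.8, 22 and 14.6 CPM in WT. The TE libraries lay above all TM libraries, and WT TE above TPdh-/- TE. TM differed from TE by a log2 value of -2.68 (SE 0.17) in TPdh-/- and -3.14 (SE 0.15) in WT (edgeR adjusted p = 1.55e-10 and 1.76e-11), with 26.4% of its exon positions shared with Lrp2bp or Ufsp2. Ddit4 read 20, 20.8, 22.3 and 22.5 CPM in the 4 TPdh-/- TM libraries and 24, 23.4, 25.1 and 19 CPM in the 4 WT TM libraries. The TE libraries held 115, 133, 140.3 and 152 CPM in TPdh-/- and 128, 116, 151 and 127 CPM in WT. Ddit4, an inhibitor of mTORC1, did not overlap between TM and TE in either genotype and differed by -2.66 in TPdh-/- and -2.51 in WT (edgeR adjusted p = 1.14e-12 and 1.63e-12). Mxi1 read 10.6, 11.2, 11.8 and 12.1 CPM in the 4 TPdh-/- TM libraries and 10.1, 11.3, 12.2 and 12.6 CPM in the 4 WT TM libraries. The values in TE were 34.2, 42.2, 46.1 and 46.1 CPM in TPdh-/- and 50.7, 51.8, 58.1 and 47.5 CPM in WT. Mxi1, an antagonist of MYC, did not overlap between TM and TE in either genotype and differed by -1.88 and -2.17 (edgeR adjusted p = 2.55e-11 and 4.15e-12). Kdm3a, a histone demethylase that needs oxygen and 2-oxoglutarate, had the smallest of these differences. It read 155, 153, 135 and 145 CPM in TPdh-/- TM and 164, 162, 156 and 159 CPM in WT TM, and 166, 164, 172 and 158 CPM in TPdh-/- TE and 215, 186, 212 and 179.7 CPM in WT TE. The CPM values were lower in TM, with a difference of -0.17 in TPdh-/- and -0.31 in WT on the log2 scale (edgeR adjusted p = 0.021 and 0.000228). In TPdh-/- that call was lost without libraries 7, 15 or 16, at most to an adjusted p of 0.103. In WT the difference took the opposite sign on the log2(TPM + 1) scale (0.092, limma adjusted p = 0.357).

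The 4 glycogen and lipid genes were lower in TM as well, Pygl most of all. Pygl (ENSMUSG00000021069, chromosome 12, 70190811 to 70231488) is the liver type of glycogen phosphorylase, which releases glucose units from glycogen. Pygl read 1.17, 1.21, 1.84 and 1.7 CPM in the 4 TPdh-/- TM libraries and 0.671, 1.18, 1.3 and 1.4 CPM in the 4 WT TM libraries. In TE these were 22.2, 26.9, 31.2 and 18.9 CPM in TPdh-/- and 54.6, 49.4, 65.7 and 40.3 CPM in WT. TM libraries stayed below 2 CPM, and in TE the 2 genotypes were separate. On the log2 scale TM minus TE was -4.06 (SE 0.23) in TPdh-/- and -5.53 (SE 0.28) in WT (edgeR adjusted p = 2.59e-10 and 1.46e-11). Gys1 read 12.6, 13.1, 12.5 and 13 CPM in the 4 TPdh-/- TM libraries and 15.4, 14.5, 14.3 and 18 CPM in the 4 WT TM libraries. The TE levels were 34.2, 39.9, 40.7 and 33.6 CPM in TPdh-/- and 33.3, 35.2, 39.6 and 31.9 CPM in WT. Gys1, glycogen synthase, did not overlap between TM and TE in either genotype and differed by -1.53 in TPdh-/- and -1.17 in WT (edgeR adjusted p = 8.52e-11 and 1.79e-09). Gbe1 read 18, 22.5, 21.6 and 21.3 CPM in the 4 TPdh-/- TM libraries and 19.4, 20.5, 23.5 and 24.9 CPM in the 4 WT TM libraries. TE libraries read 33.7, 33.6, 34.3 and 30.2 CPM in TPdh-/- and 36.3, 33.1, 37.9 and 29.2 CPM in WT. Gbe1, the glycogen branching enzyme, did not overlap between TM and TE in either genotype and differed by -0.66 and -0.63 (edgeR adjusted p = 6.01e-06 and 9.59e-06). Hilpda read 6.76, 8.05, 7.74 and 8.55 CPM in the 4 TPdh-/- TM libraries and 8.25, 8.33, 8.83 and 7.67 CPM in the 4 WT TM libraries. In TE culture it read 19.9, 21, 25.5 and 16.7 CPM in TPdh-/- and 31.4, 28.9, 33.2 and 21 CPM in WT. Hilpda, a lipid droplet protein that inhibits lipolysis, did not overlap between TM and TE in either genotype and differed by -1.42 in TPdh-/- and -1.79 in WT (edgeR adjusted p = 5.93e-08 and 2.94e-09). Genes of glycogen synthesis (Gys1 and Gbe1) and of glycogen breakdown (Pygl) were lower in TM alike. Across the 32 genes the TM against TE differences of the 2 genotypes, which share no library, had a Pearson r of 0.977, a description over genes that are not independent replicates.

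Between genes, levels can be set side by side per transcript length only, in TPM. In WT TE the highest were Bnip3 at 195 TPM, Fam162a at 194 TPM, Bnip3l at 162 TPM and Ndrg1 at 139 TPM (means of 4 libraries). In TPdh-/- TE they read 168, 181, 144 and 171 TPM in the same order of genes. In TM the order was another one, with Bnip3l at 101 TPM in TPdh-/- and 112 TPM in WT, followed by Kdm3a at 58.7 and 67.8 TPM. Bnip3 read 6.29 TPM in TPdh-/- TM and 10 TPM in WT TM. By mean CPM, WT TE was the highest of the 4 groups for 22 of the 32 genes, followed by TPdh-/- TE in all 22, and TPdh-/- TE was highest for 8.

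Within the TE groups most of the 27 genes that were lower in TM in both genotypes varied together from library to library. In the TM groups this was less clear, and Mgarp, Epas1 and Ak4 had few counts there. In WT TE, library 3 held the highest level of 22 of these 27 genes and library 4 the lowest of 23, whereas over all genes tested library 3 was highest for 27.5% and library 4 lowest for 26.8%. The median deviation of the 27 genes from the mean of the group was 0.18 in library 3 and -0.15 in library 4 on the log2 scale, against 0.0049 and -0.004 over all genes tested. In TPdh-/- TE, library 7 was highest for 16 and library 8 lowest for 19 of the 27 (29.4% and 22.3% over all genes), with median deviations of 0.13 and -0.14. In WT TM, library 12, which stood apart from its group, was highest for 18 and lowest for 6 of the 27, and over all genes it was highest for 35.6% and lowest for 35.5%. In TPdh-/- TM, library 16 was highest for 13 and library 13 lowest for 15 (23.5% and 31.1% over all genes). Library 13 was also highest for 6 of the 27 (29.2% over all genes). The genes are not independent of each other, and which property of a culture or library moves with this spread was not tested.

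**Figure D2:**
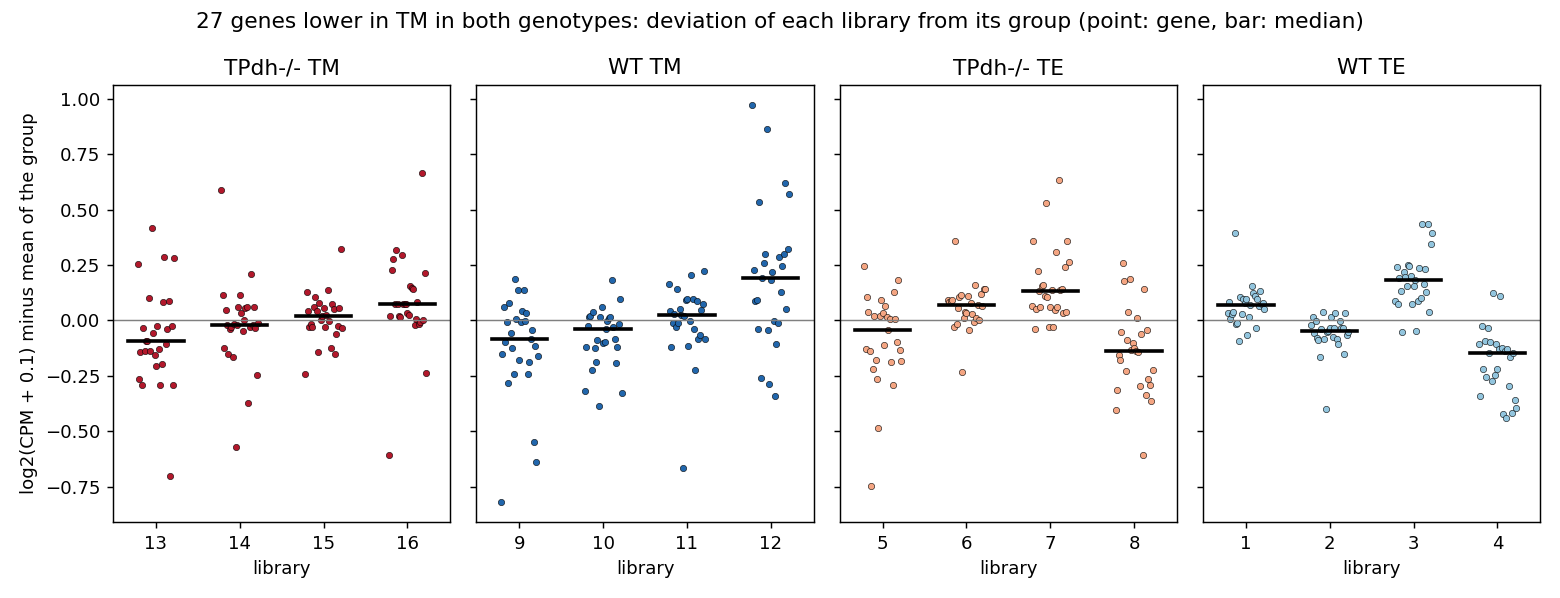
Deviation of each library from the mean of its group in log2(CPM + 0.1) (y axis) for the 27 genes that were lower in TM in both genotypes (points), by library (x axis) and group (panels), with the median as a bar. In WT TE the points of library 3 lie above 0 for 25 genes and those of library 4 below 0 for 25 genes.

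The comparison of genotypes asks which genes of the pathway differ when pyruvate dehydrogenase is targeted. In TPdh-/- TE, 14 of the 32 genes were lower and 1 was higher than in WT TE, beside 14.2% lower and 17.2% higher over all genes tested. The median log2 difference was -0.17, against -0.00025 over all genes. The lower genes were 3 of the 5 sensors, 5 of the 6 targets at the mitochondrion, 4 of the 6 signalling and chromatin genes and 2 of the 4 glycogen and lipid genes. Of the 5 collagen and disulfide enzymes 0 passed by edgeR and 0 by DESeq2, with 2 (P4ha1 and Plod2) at an unadjusted p under 0.05 by edgeR. Of the secreted factors and the pH regulator, Vegfa and Car9 were tested and neither passed.

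**Figure D3:**
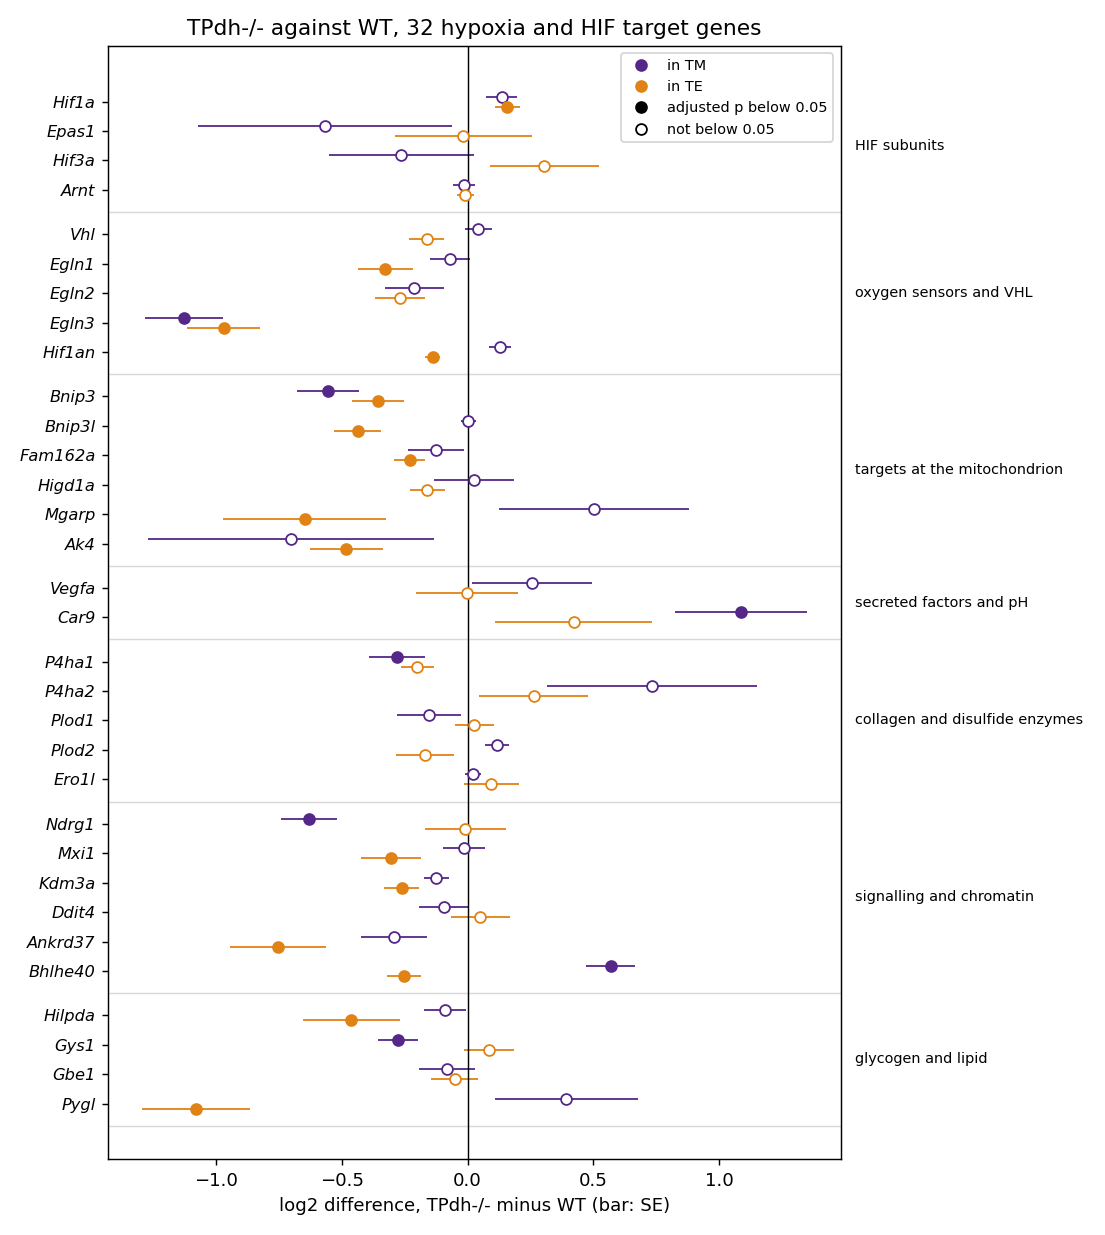
The log2 difference of TPdh-/- from WT (x axis, with SE) for each of the 32 genes tested (y axis, grouped by role), with TM as the upper and TE as the lower point of each row. Filled points passed an adjusted p of 0.05. Egln3 and Bnip3 are filled left of 0 in both cultures, Pygl lies farthest left in TE, and Bhlhe40 is filled on opposite sides.

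Pygl had the largest of these differences. It read 24.8 ± 5.39 CPM in TPdh-/- TE and 52.5 ± 10.6 CPM in WT TE (mean ± SD, n = 4 each, log2 difference -1.08, SE 0.22, edgeR adjusted p = 0.00025), with all 4 TPdh-/- libraries below all 4 of WT. Egln3 read 48.9 ± 5.73 CPM in TPdh-/- TE and 95.8 ± 14.9 CPM in WT TE (log2 difference -0.97, SE 0.14, edgeR adjusted p = 1.99e-05), again without overlap. Ankrd37 read 11.1 ± 2.28 CPM in TPdh-/- TE and 18.8 ± 3.09 CPM in WT TE (log2 difference -0.75, SE 0.19, edgeR adjusted p = 0.000496). These 3 genes, a glycogen phosphorylase, a hydroxylase and a hypoxia marker, passed under the 9 alternative settings and with any 1 of 16 libraries left out. The mitophagy receptors were both lower. Bnip3l read 209 ± 23.4 CPM in TPdh-/- TE and 283 ± 20.9 CPM in WT TE (log2 difference -0.44, SE 0.094, edgeR adjusted p = 9.41e-05). Bnip3 read 199.9 ± 16.3 CPM in TPdh-/- TE and 256 ± 29.3 CPM in WT TE (log2 difference -0.36, SE 0.1, edgeR adjusted p = 0.00712). For both receptors the libraries of the 2 genotypes did not overlap. Egln1 read 122 ± 13.3 CPM in TPdh-/- TE and 153 ± 15.6 CPM in WT TE (log2 difference -0.33, SE 0.11, edgeR adjusted p = 0.00736). Kdm3a read 165 ± 5.89 CPM in TPdh-/- TE and 198 ± 17.8 CPM in WT TE (log2 difference -0.26, SE 0.07, edgeR adjusted p = 0.00317). For both Egln1 and Kdm3a all TPdh-/- libraries lay below all WT libraries. For Hilpda, library 4 of WT lay within the TPdh-/- range, and the log2 difference was -0.46 (SE 0.19, edgeR adjusted p = 0.0109). The calls of Bnip3, Bnip3l, Egln1, Kdm3a and Hilpda held with any 1 library left out and among the 9 alternative settings were lost on the log2(TPM + 1) scale alone, before the libraries were centred.

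The other calls in TE were less firm. Bhlhe40 was lower (log2 difference -0.25, SE 0.068, edgeR adjusted p = 0.0181), a call lost without library 8 (log2 -0.21, adjusted p = 0.0536). In all 4 TPdh-/- libraries Mxi1 lay below every WT library. Its log2 difference was -0.3 (SE 0.12, edgeR adjusted p = 0.016), a call lost without library 3 (log2 -0.26, adjusted p = 0.0533). For Hif1an, the asparaginyl hydroxylase, the difference was small but without overlap (log2 difference -0.14, SE 0.03, edgeR adjusted p = 0.0298), and the call was lost without library 2 and without library 5, in the second case with a log2 difference of -0.11 (adjusted p = 0.0812). Fam162a read 58.4 ± 3.38 CPM in TPdh-/- TE and 68.5 ± 4.28 CPM in WT TE (log2 difference -0.23, SE 0.062, edgeR adjusted p = 0.0353), a call lost without libraries 1, 3, 7 or 8, at most to an adjusted p of 0.0838. Ak4 read 41.5 ± 7.47 CPM in TPdh-/- TE and 58 ± 3.32 CPM in WT TE (log2 difference -0.48, SE 0.15, edgeR adjusted p = 0.0394), a call lost without any 1 of 7 TE libraries (1 to 4 and 6 to 8), at most to an adjusted p of 0.0978. Mgarp overlapped between the genotypes (log2 difference -0.65, SE 0.32, edgeR adjusted p = 0.0322), and its call was lost without libraries 1, 3, 5, 6 or 8, at most to an adjusted p of 0.113. Hif1a was the only gene called higher, at 428 ± 14.3 CPM in TPdh-/- TE and 384 ± 22.3 CPM in WT TE (log2 difference 0.16, SE 0.048, edgeR adjusted p = 0.0463). All 4 TPdh-/- libraries lay above all 4 of WT, and the call was lost in 13 of 16 fits with 1 library left out, at most to an adjusted p of 0.162 without library 2. RNA of the alpha subunit was thus called higher in the libraries in which 14 other genes were called lower.

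The scaling of the libraries mattered in TE. Of all calls between the genotypes in TE 54.8% were higher in TPdh-/- with TMM factors, 75% with library totals alone and 84% on the log2(TPM + 1) scale, where the median difference of all genes shifted by 0.13. Of the genes of this pathway, 1 was then called higher and 8 lower with library totals, and 2 higher and 4 lower on the TPM scale. Fam162a, Mxi1, Ak4, Bhlhe40, Hif1an and Mgarp were the calls lost with library totals. After each library was centred on a common median in TPM, an alternative chosen after the data were seen, 2 were higher (Hif1a and Car9) and 12 lower. No gene called lower with TMM factors was called higher under another setting. Without libraries 5 and 12, also chosen after the data were seen, 14 were lower and 1 was higher, and 12 of the 15 calls were shared. Hif1a, Hif1an and Mgarp were then lost, and P4ha1, Plod2 and Car9, the last one higher, were gained. Plod2 was also gained without library 5 alone, and P4ha1, Vhl and Egln2, all lower, without library 12 alone.

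The genes that did not pass in TE included several strong TE genes. Ndrg1 read 151 ± 22 CPM in TPdh-/- TE and 152 ± 23.1 CPM in WT TE (log2 difference -0.0085, SE 0.16, edgeR adjusted p = 0.965). Vegfa read 20.5 ± 3.43 CPM in TPdh-/- TE and 20.5 ± 4.63 CPM in WT TE (log2 difference -0.0014, SE 0.2, edgeR adjusted p = 0.996). Ddit4 read 135 ± 15.5 CPM in TPdh-/- TE and 131 ± 14.9 CPM in WT TE (log2 difference 0.051, SE 0.12, edgeR adjusted p = 0.719). All 3 are well known HIF targets, and their libraries overlapped between the genotypes. P4ha2 had a log2 difference of 0.26 and Ero1l of 0.094 (edgeR adjusted p = 0.356 and 0.364). Egln2 lay below every WT library in all 4 TPdh-/- libraries without passing (log2 difference -0.27, SE 0.1, edgeR adjusted p = 0.0542), and passed by DESeq2.

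In TM, where levels were lower, 7 of the 32 genes were called between genotypes. In TPdh-/- TM, 5 of the 32 genes were lower and 2 were higher than in WT TM, beside 7.27% lower and 11% higher over all genes tested. The median log2 difference was -0.076, against -0.0048 over all genes. Together 21.9% of the 32 genes and 18.3% of all genes were called. Egln3 was lower here too, at 5.13 ± 0.784 CPM in TPdh-/- TM and 11.2 ± 1.84 CPM in WT TM (log2 difference -1.13, SE 0.16, edgeR adjusted p = 2.9e-05). Bnip3 was lower as well, at 7.59 ± 1.24 CPM in TPdh-/- TM and 11.1 ± 0.607 CPM in WT TM (log2 difference -0.56, SE 0.12, edgeR adjusted p = 0.00122). These 2 of the 32 genes were lower in TPdh-/- in both cultures, which share no library, beside 2.72% of all genes, and passed with any 1 library left out. The labels do not say whether the 2 cultures share animals. Ndrg1 read 15.8 ± 1.71 CPM in TPdh-/- TM and 24.4 ± 2.96 CPM in WT TM without overlap (log2 difference -0.63, SE 0.11, edgeR adjusted p = 0.00202), a call lost on the log2(TPM + 1) scale, centred or not. Gys1 was lower in all 4 TPdh-/- libraries than in any WT library. The log2 difference was -0.28 (SE 0.078, edgeR adjusted p = 0.0338), and the call was lost without libraries 9, 12, 13, 14, 15 or 16, at most to a log2 difference of -0.2 (adjusted p = 0.124) without library 12. For P4ha1 the genotypes overlapped. Library 12 of WT was the highest, and without it the log2 difference was -0.17 (adjusted p = 0.0899), against -0.28 with all libraries (SE 0.11, edgeR adjusted p = 0.0264). That call was also lost without libraries 14, 15 or 16. Some genes passed once a library that stood apart was left out. Fam162a was lower without library 12 (log2 -0.21, adjusted p = 0.0403), and Hif1an was higher without TE library 5 (log2 0.13, adjusted p = 0.0436), which enters this test through the shared spread.

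The higher genes in TM were Bhlhe40 and Car9. Bhlhe40 read 61.9 ± 7.61 CPM in TPdh-/- TM and 41.8 ± 2.69 CPM in WT TM (log2 difference 0.57, SE 0.1, edgeR adjusted p = 5.38e-05), and it passed with any 1 library left out. Car9 lay higher in all 4 TPdh-/- libraries than in any WT library. It had 111 counts over 4 TPdh-/- libraries and 52 over 4 WT libraries (log2 difference 1.09, SE 0.26, edgeR adjusted p = 0.0238), and the call was lost without libraries 9, 10, 11 or 16, at most to an adjusted p of 0.0762. The estimated mean length of Car9 transcripts was 612 bases in TPdh-/- TM and 639 bases in WT TM, against 2304 exon positions. Of these positions 9.29% also belong to another gene, and which transcript the reads came from was not tested. Without library 16 alone, the count of called genes was 4. Genes listed as markers of several cell types moved with genotype in the same TM libraries. The NK cell list is largely made of Klr receptor genes. The study reports killer-like receptors among its top upregulated genes in TPdh-/- TM and reads them as markers of an effector phenotype. Which cells carried this RNA was not tested. The summed level of 9 NK cell markers was 33.9 to 52.1 TPM in TPdh-/- TM and 2.78 to 4.13 TPM in WT TM, and all 9 lay above every WT library. The sum of 9 macrophage and monocyte markers was 19 to 32 TPM in TPdh-/- TM and 2.49 to 3.73 TPM in WT TM, with 5 of 9 above every WT library. The sum of 7 gamma-delta T cell markers was 178.7 to 239.6 TPM in TPdh-/- TM and 57 to 67.3 TPM in WT TM (7 of 7). The sum of 6 dendritic cell markers was 7.57 to 15.1 TPM in TPdh-/- TM and 1.01 to 1.72 TPM in WT TM (3 of 6). The sum of 5 CD8+ T cell markers was 2153 to 2409 TPM in TPdh-/- TM and 2989 to 3204 TPM in WT TM (3 of 5 below). For each of these 5 sums the exact 2-sided permutation p was 0.0286, the smallest that 4 against 4 libraries allow. The marker lists were chosen with earlier results of these data known, so these p values are no independent test. The sum of 5 B cell markers overlapped, at 4.51 to 29.6 TPM in TPdh-/- TM and 4.81 to 14.1 TPM in WT TM (exact permutation p = 0.257). In TE the sums were 5.21 to 9.58 TPM in TPdh-/- and 3.43 to 5.02 TPM in WT for NK cells, and 3.21 to 8.07 TPM in TPdh-/- and 0.94 to 2.51 TPM in WT for macrophages. For gamma-delta T cells they were 217 to 330 TPM in TPdh-/- TE and 94 to 106 TPM in WT TE, for B cells 1.81 to 3.83 TPM in TPdh-/- TE and 0.65 to 1.65 TPM in WT TE, for dendritic cells 1.91 to 4.57 TPM in TPdh-/- TE and 5.2 to 6.57 TPM in WT TE, and for CD8+ T cells 1622 to 1789 TPM in TPdh-/- TE and 2133 to 2325 TPM in WT TE. The part of these markers in the results above was not tested.

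For 5 of the 32 genes the genotype effect differed between TM and TE, which the interaction tests directly (effect in TM minus effect in TE). It was positive for 4 and negative for 1, beside 8.03% positive and 7.5% negative over all genes tested. In total 15.6% of the 32 genes passed, close to the 15.5% of all genes. Bhlhe40 had effects of opposite sign that each passed, 0.57 in TM and -0.25 in TE (interaction log2 difference 0.82, SE 0.12, edgeR adjusted p = 6.96e-05). Pygl had an effect of -1.08 in TE, while in TM, at levels of 1.48 ± 0.342 CPM in TPdh-/- and 1.14 ± 0.325 CPM in WT, it was 0.39 and did not pass (edgeR adjusted p = 0.353, interaction log2 difference 1.47, SE 0.36, edgeR adjusted p = 0.00571). Bnip3l differed in TE and read 149 ± 5.13 CPM in TPdh-/- TM and 148 ± 3.24 CPM in WT TM (interaction log2 difference 0.44, SE 0.1, edgeR adjusted p = 0.00428). Its paralog Bnip3, in contrast, was lower in both cultures, and its interaction did not pass (log2 difference -0.2, SE 0.16, edgeR adjusted p = 0.379). Hif1an lay above every WT library in TPdh-/- TM without passing (log2 difference 0.13, SE 0.043, edgeR adjusted p = 0.062) and was lower in TE (interaction log2 difference 0.27, SE 0.053, edgeR adjusted p = 0.00944). Ndrg1 ran the other way, with an effect in TM and none that passed in TE (interaction log2 difference -0.62, SE 0.2, edgeR adjusted p = 0.0218), and this call was lost without library 15 or without library 12 (log2 -0.52, adjusted p = 0.0561). For Egln3 the effects in TM and TE were close, -1.13 and -0.97, and the interaction was -0.16 (SE 0.21, edgeR adjusted p = 0.625). On the log2(TPM + 1) scale 2 genes passed (Bhlhe40 and Pygl), and with each library centred 4 passed (Bhlhe40, Pygl, Hif1an and Ak4). In TM the means of Ak4 were 0.0875 TPM in TPdh-/- and 0.1375 TPM in WT, below the 1 added on that scale. Without library 5 the interaction of Plod2 (log2 0.35, adjusted p = 0.0384) and that of Gys1 passed too.

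**Figure D4:**
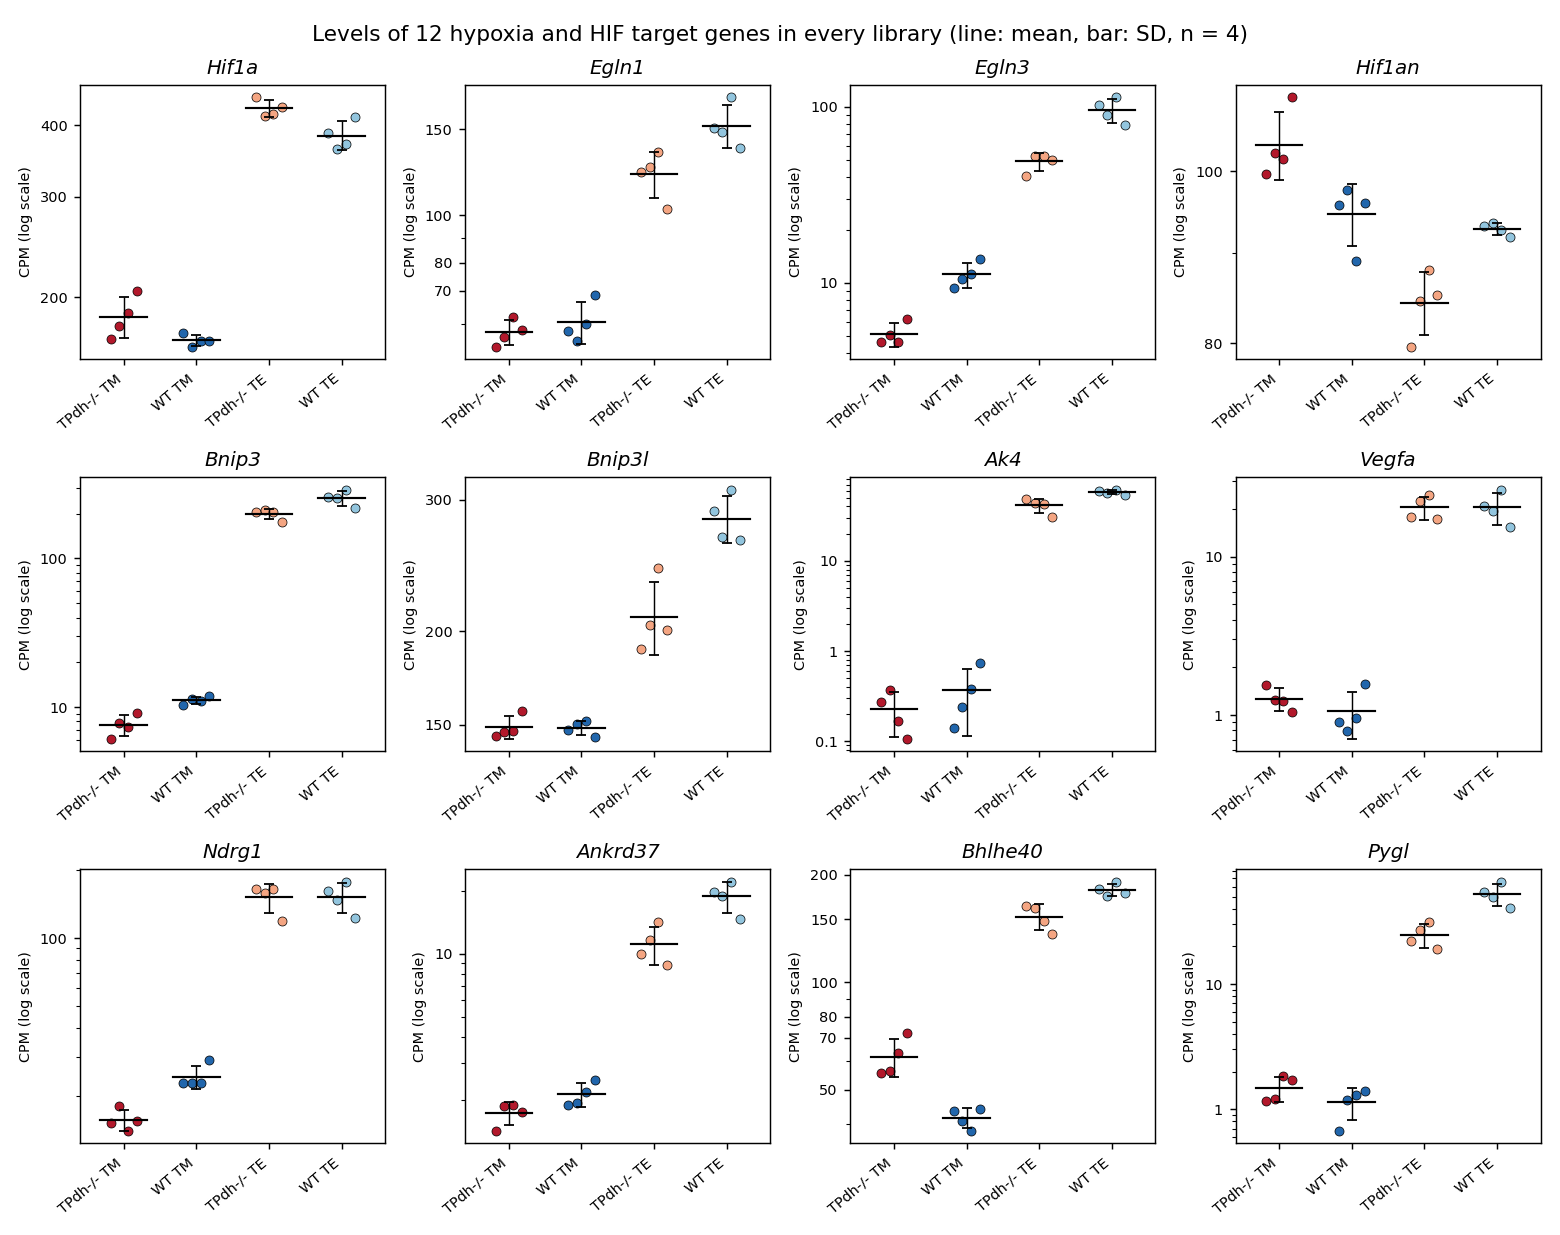
CPM on a log axis (y axis) in each library (points) of the 4 groups (x axis) for 12 of the genes, with the mean and SD of 4 libraries. Egln3 steps up in the order TPdh-/- TM, WT TM, TPdh-/- TE, WT TE, and Bhlhe40 lies higher in TPdh-/- than WT in TM and lower in TE.

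The files also give the mean transcript length of each gene, weighted by the abundance of its isoforms, which is a readout of isoform mix. It could be tested for 24 of the 33 genes (at least 1 TPM in all libraries). Between TPdh-/- and WT 0 of 24 passed in TM or in TE by limma (adjusted p below 0.05), with 3 in TM and 0 in TE at an unadjusted p under 0.05, beside 0.00962% of 10397 genes called in TM and 0.279% in TE. Between TM and TE, 4 of 24 passed in TPdh-/- and 7 of 24 in WT, beside 25.6% and 27.4% of all genes. The share of the 24 genes was thus below that of all genes in TPdh-/- and close to it in WT. Kdm3a, Plod2 and P4ha1 were called in both genotypes, for which the share over all genes was not taken. The mean transcript length of Kdm3a was 3201, 3169, 3310.1 and 3170.1 bases in TPdh-/- TM and 3096, 3096, 3274 and 3028 bases in WT TM. In TE it was 3557, 3577, 3429 and 3444 bases in TPdh-/- and 3593, 3580.3, 3539.7 and 3575 bases in WT. Its transcripts were shorter in TM in both genotypes (-8.26% in TPdh-/-, limma adjusted p = 0.00132, and -12.6% in WT, limma adjusted p = 5.02e-05). Plod2 was shorter in TM too, with a difference of -8.48% in TPdh-/- and -9.52% in WT (limma adjusted p = 3.97e-05 and 1.57e-05). P4ha1 was longer in TM by 1.92% in TPdh-/- and 1.2% in WT (limma adjusted p = 0.00206 and 0.0301). Higd1a was called longer in TPdh-/- (7.24%, limma adjusted p = 0.0204), and in WT Fam162a was longer (3%, limma adjusted p = 0.00118). In WT alone Mxi1 (-9.54%), Ankrd37 (-16.3%) and Bhlhe40 (-3.62%) passed as shorter in TM (limma adjusted p = 0.00287, 0.00747 and 0.00763), and the difference from TPdh-/- was not tested. RSEM infers isoforms from short reads, so that the length is an estimate.

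**Figure D5:**
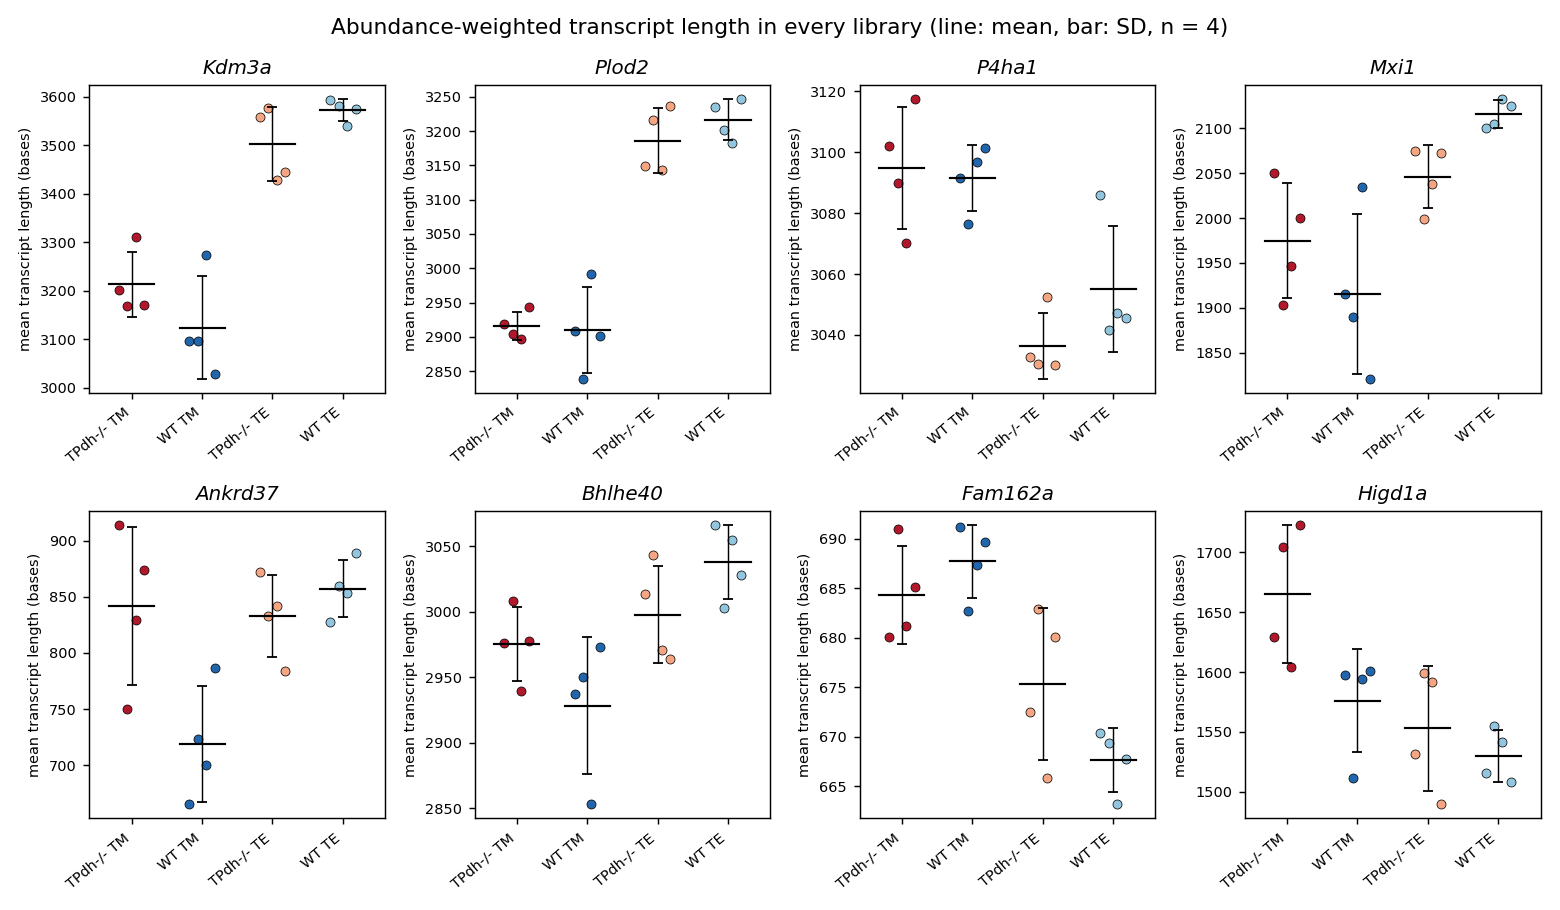
Mean transcript length in bases (y axis, not from 0) in each library (points) of the 4 groups (x axis) for the 8 genes that passed between TM and TE in at least 1 genotype, with the mean and SD of 4 libraries. Kdm3a and Plod2 lie lower in all TM libraries than in any TE library.

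Other genes of the pathway were mostly lower in TM too. Of 49 listed, among them partners of the VHL ligase, coactivators and further HIF targets, 41 were tested. In TM against TE 28 were lower and 6 higher in TPdh-/- (82.9% called, beside 67.6% of all genes), and 29 lower and 7 higher in WT (87.8%, beside 68.5%). Between genotypes in TE 8 were lower and 11 higher (46.3% called, beside 31.4% of all genes). In TM 2 were lower and 6 higher, and the 19.5% called were close to the 18.3% of all genes. The interaction passed for 6 positive and 4 negative (24.4%, beside 15.5%). Pim1, a survival kinase, was higher in TPdh-/- in both cultures (log2 0.45 in TM and 0.62 in TE, edgeR adjusted p = 2.87e-06 and 4.63e-08). Rora, a nuclear receptor, was higher in both as well (log2 0.99 in TM and 0.39 in TE, edgeR adjusted p = 2.97e-07 and 0.00192). Sap30, a subunit of the Sin3 histone deacetylase complex, was lower in both (log2 -0.59 in TM and -0.49 in TE, edgeR adjusted p = 0.000135 and 0.00018). Tfrc, the transferrin receptor, read 997 ± 263 CPM in TPdh-/- TE and 485 ± 13.2 CPM in WT TE (log2 difference 1.04, SE 0.18, edgeR adjusted p = 6.07e-06). In TM its effect was 0.034 (edgeR adjusted p = 0.885, interaction -1.0, edgeR adjusted p = 0.000644). Ccng2, a cyclin that opposes the cell cycle, was lower in TPdh-/- TE (log2 difference -0.55, SE 0.1, edgeR adjusted p = 4.3e-05). Ccng2 did not pass in TM (log2 -0.053, edgeR adjusted p = 0.707). Hmox1, the heme oxygenase, was called higher in TPdh-/- in both cultures (log2 1.48 in TM and 0.44 in TE, edgeR adjusted p = 2.41e-05 and 0.0441), more so in TM (interaction 1.04, edgeR adjusted p = 0.00768). Its call in TE was lost without the filter on low counts and by limma-trend on counts. That call was also lost without library 1, 2, 3, 4, 6, 7, 8, 9, 11, 13 or 15. The chemokine receptor Cxcr4 was higher in TM (log2 difference 0.47, SE 0.05, edgeR adjusted p = 0.000163) and did not pass in TE (log2 -0.054, edgeR adjusted p = 0.591, interaction 0.52, edgeR adjusted p = 0.0016). Arnt2, a paralog of Arnt, was called higher in TPdh-/- in both cultures at very low counts, with 31 counts in TPdh-/- TM and 1 in WT TM, and 235 in TPdh-/- TE and 37 in WT TE (edgeR adjusted p = 0.0034 in TM and 0.000171 in TE). Rab20, a small GTPase, was higher in TPdh-/- TE (log2 difference 1.5, SE 0.34, edgeR adjusted p = 0.000208) and did not pass in TM (edgeR adjusted p = 0.136). Siah1a and Siah2, ubiquitin ligases that degrade prolyl hydroxylases, were higher in TPdh-/- TE (log2 0.37 and 0.35, edgeR adjusted p = 0.00945 and 0.0025). Narf and Zfp395 were lower in TPdh-/- TE (log2 -0.36 and -0.58, edgeR adjusted p = 0.000565 and 0.000784), and Jmjd6, a dioxygenase, was lower in TPdh-/- TM (log2 -0.35, edgeR adjusted p = 0.00241).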

How the data were processed

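RNA of 16 libraries (poly(A) selected with an unstranded kit, 4 libraries in each of 4 groups) was sequenced on a NovaSeq instrument by the authors. Per the submitters' processing notes the reads were processed with STAR 2.7.6a and RSEM 1.3.3 on mm10 (GRCm38). The annotation release is not given in the sources used here. The deposited tables hold expected counts per gene, which the authors estimated with RSEM so that reads shared by several genes are split between them. They also hold TPM values, which the authors scaled to transcript length and library, and FPKM values deposited by the authors, which were not used. The deposited transcript length per gene is the RSEM mean weighted by isoform. Gene names and positions were taken from GENCODE M21, which matched 55141 of 55401 identifiers (99.5%).

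Expected counts were rounded and tested with edgeR 4.0.16 (quasi-likelihood test, TMM factors, filterByExpr with a minimum count of 10 and a minimum total of 15) over 15277 genes and all 16 libraries, with Benjamini-Hochberg adjustment and a threshold of 0.05. The SE came from the spread of log2 CPM (prior count of 2). Transcript length was tested with limma 3.58.1 on log2 length over 10397 genes with a TPM of at least 1 in all libraries. R 4.3.3 and DESeq2 1.42.0 were used as well. Depth was 53007257 to 73507566 counts. In data simulated for TPdh-/- against WT in TM (14987 genes) a 2-fold change was recovered for 100 of 100 genes and a 4-fold change for 100 of 100, and 9 of 209 calls were false. The changed genes were drawn from those with a mean above 1 CPM, and the spread was taken from the trend over genes. Changes below 2-fold and genes at lower levels were not checked. Alternatives were DESeq2, RLE factors, library totals, no filter, limma-trend on counts, log2(TPM + 1), a fit of the groups compared alone, each library left out, and 2 settings chosen after the data were seen (TPM with centred libraries, and omitting libraries 5 and 12). The genes and lists were chosen with earlier results of these data known. The text names every one of the 33 genes, with values per library for those called in a comparison. Other pathway genes were named from the 4 with the smallest adjusted p per direction, between genotypes and in the interaction. Marker sums were compared with an exact permutation test.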

Additional observations from a re-analysis of the deposited data

Results flagged for a closer look

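In 5 of the 128 groups of 4 values examined, 1 library lay far from the other 3, where chance gives about 1 in 20. Arnt read 65.5 CPM in TPdh-/- TM library 15, and 70.01 to 70.12 CPM in the others of that group. Vhl read 31.4 CPM in TPdh-/- TE library 7, and 26.2 to 26.9 CPM in the others. Ndrg1 read 28.9 CPM in WT TM library 12, a library that stood apart over all genes, and 22.93 to 22.95 CPM in the others. Ndrg1 also read 119 CPM in TPdh-/- TE library 8, and 157 to 165 CPM in the others. Gbe1 read 30.2 CPM in the same TPdh-/- TE library 8, and 33.6 to 34.3 CPM in the others.

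For 5 of the 32 genes the effect of genotype differed between the cultures (effect in TM minus effect in TE, log2, edgeR interaction). This share of 15.6% was close to the 15.5% of all genes tested. The difference was 0.27 for Hif1an, 0.44 for Bnip3l, -0.62 for Ndrg1, 0.82 for Bhlhe40 and 1.47 for Pygl. Without library 12 that of Ndrg1 was -0.52 and no longer passed (adjusted p = 0.0561).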

How the results depend on the processing

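Between genotypes in TM 7 genes were called, against 4 on the log2(TPM + 1) scale with centred libraries and 4 to 8 with 1 library left out, the lowest without TPdh-/- TM library 16. In TE 15 were called, against 9 with library totals, 6 on the log2(TPM + 1) scale and 10 to 17 with 1 library left out. The interaction was called for 5, against 2 on the log2(TPM + 1) scale and 4 to 7 with 1 library left out. On that scale the median difference of all genes shifted by 0.13 (TE), 0.18 (TM against TE in WT) and -0.16 (interaction). The share of calls that were higher moved to 18.6% on that scale, 33.9% with library totals and 62.5% with centred libraries for the interaction (51.7% with TMM factors), and to 65.6% on that scale for TM against TE in WT (50% with TMM factors). Kdm3a, TM against TE in WT, reversed to 0.092 on the log2(TPM + 1) scale. Its mean transcript length in WT differed by -12.6% in TM from TE, and TPM values are scaled to that length. The interaction of Ak4 was 0.46 with centred libraries, against -0.22 with TMM factors. The cause was not tested. Of 4091 comparisons of single genes with an alternative, 110 lost and 53 gained a call, 2 reversed, 72 of genes called in neither fit moved by more than the SE, and 3854 kept the call or moved by less. Genes called in neither fit changed sign in 131. TM against TE kept 29 to 30 calls in TPdh-/- and 29 in WT with any 1 library left out. No paired analysis was possible because the groups share no replicate numbers. Depth limits Adm, Car9 in TM and Mgarp and Ak4 in TM.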
